A study of Mus musculus with 12 samples.

Results

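The Cd209 family of C-type lectins was described in 4 fractions of monocyte-macrophage lineage cells (Mo-Macs) from allergic mouse skin. The members were the rows of the expression table with the symbols Cd209a to Cd209g, which are 7 of its 37775 genes. The family was chosen by the measured levels of Cd209f and Cd209g in late CMDMs, 1 of these fractions, so their differences from that fraction, and those of every member from it to early CMDMs and resident-like macrophages, are given without a test.

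The skin came from wild-type (WT) BALB/c mice aged 7 to 12 weeks with IgE-mediated chronic allergic inflammation (IgE-CAI), induced by 300 μg of IgE against the hapten TNP and then 10 μg of TNP-OVA injected into the ear. All 4 fractions came from this inflamed skin on day 5 and none from untreated skin. Cells were sorted by Ly6C and PD-L2 into Ly6ChiPD-L2lo classical monocytes, Ly6ChiPD-L2hi early classical monocyte-derived macrophages (CMDMs), Ly6CloPD-L2hi late CMDMs and Ly6CloPD-L2lo resident-like macrophages. RNA of 5000 to 80000 cells per sample was sequenced, with 3 libraries per fraction, 12 in all. Whether the libraries of a fraction came from separate mice is not given in the sources used here, so that the p-values measure the spread between libraries, which may be technical.

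Cd209 lectins are membrane proteins with a calcium-dependent lectin domain that binds mannose- and fucose-bearing glycans on microbes and on host proteins. They are the mouse relatives of human DC-SIGN and take up glycosylated ligands, and their signals can shape cytokine production. Cd209a (CIRE, also SIGNR5) is known from monocyte-derived dendritic cells, and Cd209b (SIGNR1) from macrophages of the splenic marginal zone and the dermis. Cd209d (SIGNR3) has been studied as a receptor for mycobacteria, whereas Cd209f (SIGNR8) and Cd209g (SIGNR7) are often listed among markers of Lyve1-positive tissue macrophages. Cd209c and Cd209e are also called SIGNR2 and SIGNR4.

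In the GENCODE M21 annotation of GRCm38 the 7 genes form a cluster of 394311 bases on chromosome 8. Cd209a (3743397 to 3748984), Cd209e (3847965 to 3854309), Cd209d (3871824 to 3878555), Cd209b (3917655 to 3926844) and Cd209c (3940222 to 3954746) follow each other on the minus strand. A gap of 148040 bases separates Cd209c from Cd209f (4102787 to 4105835, minus strand). Cd209g (4134098 to 4137707) lies 28262 bases further on and is the only member on the plus strand. No other protein-coding gene is annotated between the outermost members.

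**Figure D1:**
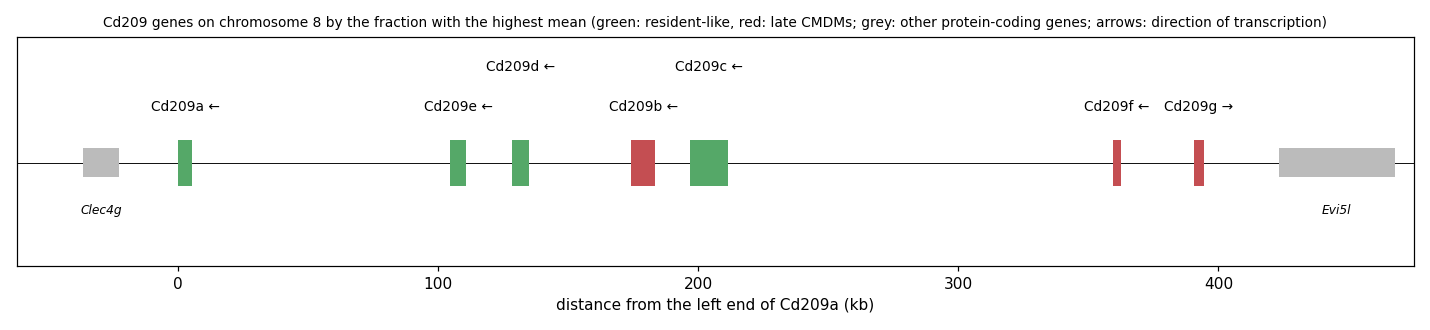
Positions of the 7 Cd209 genes on chromosome 8, as distance in kb from the left end of Cd209a, with arrows for the direction of transcription and other protein-coding genes in grey. Colour marks the fraction with the highest mean level: the genes highest in late CMDMs are Cd209b, within the first group of 5, and Cd209f and Cd209g, which lie apart from it.

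Cd209f and Cd209g are the closest pair by sequence, which bears on how well their counts can be told apart. Their coding sequences were identical at 89.2% of aligned bases, against 62.3% to 78.6% for the other pairs. Of the 100-base words of the longest coding transcript of Cd209f, 29.2% also occur in Cd209g, and 29.6% of those of Cd209g occur in Cd209f. No 100-base or 50-base word was shared between any other members. Cd209c shared 6.75% of its 100-base words with genes outside the family, Gm42546 and Olfr1372-ps1. It shared 22.4% of its 50-base words with these and many further genes outside the family. The other members shared no word of either length with outside genes. The likeness of Cd209f and Cd209g reached into their RefSeq promoter windows (GRCm38.p6), 250 bases before to 50 after the start, found for all 7 members. These windows had 86% identical bases and an identical run of 180 bases, whereas the longest run shared by any other pair was 17 bases. The part of both windows before the first exon of the protein-coding transcripts is shown because it holds a stretch common to the members with the highest folds in late CMDMs against classical monocytes and resident-like macrophages, with that identical stretch of 83 bases in capitals. The Cd209f window is chr8:4105836-4106014 on the minus strand and the Cd209g window is chr8:4134486-4134651 on the plus strand, which lies within a retained-intron transcript annotated for Cd209g.
Cd209f: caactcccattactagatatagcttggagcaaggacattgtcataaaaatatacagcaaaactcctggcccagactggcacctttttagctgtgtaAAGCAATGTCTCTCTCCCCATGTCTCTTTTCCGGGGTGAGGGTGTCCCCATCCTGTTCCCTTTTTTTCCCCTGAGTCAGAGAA
Cd209g: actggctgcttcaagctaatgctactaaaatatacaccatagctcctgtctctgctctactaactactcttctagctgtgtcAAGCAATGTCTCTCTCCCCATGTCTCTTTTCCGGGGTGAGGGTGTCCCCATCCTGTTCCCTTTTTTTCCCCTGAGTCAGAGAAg

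In all, 6 short motifs were searched on both strands of the full windows of the 7 members and of all 32851 promoters in the RefSeq set. The AP-1 motif TGAGTCA, which lies near the 3′ end of the stretch in capitals, was present in Cd209f and Cd209g among the members and in 5.2% of all promoters. The letters AGGAAG, the core of PU.1 sites, were present in Cd209a, Cd209b, Cd209d and Cd209e and in 35.4% of all promoters. TATAAA was present in Cd209a, Cd209f and Cd209g (13.6% of all promoters), and the STAT6-type letters TTCNNNNGAA in Cd209e (6.95%). TGCTGAC (4.67%) and CCCCACCC (9.99%) were in no member's window. These matches describe letters in a window and not bound sites.

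Total counts ranged from 12537178 to 19844113 per library, and 3 counts, the upper limit that a count of 0 allows, corresponded to 0.162 to 0.239 CPM, a count normalized to library size. Such limits cover counting error only, since the reads carry no molecular identifiers. All 7 members passed the expression filter, as did 22118 genes in all. Levels are given as CPM scaled by TMM, a method that takes most genes as unchanged between libraries. The fractions differed in markers of other cells. The summed level of 6 keratinocyte genes was 17096 to 27284 CPM in early CMDMs and 1871 to 4050 CPM in the other fractions. The summed level of 11 Mo-Mac genes was 2888 to 4159 CPM in early CMDMs and 6896 to 10823 CPM in the other fractions. The 6 fibroblast genes summed to 2988 to 5588 CPM in classical monocytes and early CMDMs, and to 276 to 499 CPM in the other 2 fractions. The 6 T cell genes summed to 113 to 164 CPM in classical monocytes and to 13.1 to 26.5 CPM in the other fractions.

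The 7 genes followed a pair of patterns. With TMM, Cd209a, Cd209c, Cd209d and Cd209e were highest in resident-like macrophages and lowest in early CMDMs. By contrast, Cd209b, Cd209f and Cd209g were highest in late CMDMs and lowest in classical monocytes. The place of early CMDMs below classical monocytes depended on scaling, as given below. In bulk samples, fewer cells that express a gene cannot be told apart from less RNA per cell.

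For Cd209a, classical monocyte libraries 1 to 3 gave 177, 139 and 107 CPM, early CMDM libraries 51.8, 49.4 and 49.3 CPM, late CMDM libraries 146, 163 and 92.4 CPM, and resident-like libraries 573, 570 and 523 CPM. Resident-like macrophages thus stood above every other library, early CMDMs below, and classical monocytes and late CMDMs overlapped. For Cd209d, classical monocyte libraries gave 197, 139 and 114 CPM, early CMDM libraries 59.6, 54.6 and 51.9 CPM, late CMDM libraries 243, 265 and 142 CPM, and resident-like libraries 353, 379 and 408 CPM. Its order was resident-like macrophages, late CMDMs, classical monocytes and early CMDMs, with overlap between the middle fractions alone.

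For Cd209e, classical monocyte libraries gave 62.0, 50.6 and 39.4 CPM, early CMDM libraries 24.7, 24.9 and 26.7 CPM, late CMDM libraries 63.2, 65.6 and 50.6 CPM, and resident-like libraries 108, 87.3 and 105 CPM. Levels were lower for Cd209c, for which classical monocyte libraries gave 22.8, 14.6 and 16.4 CPM, early CMDM libraries 8.54, 6.70 and 7.53 CPM, late CMDM libraries 19.8, 24.0 and 14.4 CPM, and resident-like libraries 60.4, 54.2 and 56.1 CPM. Both genes kept the same order and the same single overlap as Cd209d.

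For Cd209b, classical monocyte libraries gave 6.65, 8.58 and 6.80 CPM, early CMDM libraries 15.0, 14.6 and 11.8 CPM, late CMDM libraries 95.8, 99.2 and 48.9 CPM, and resident-like libraries 46.4, 69.1 and 52.4 CPM. Late CMDMs and resident-like macrophages overlapped at the top of this order, and the remaining neighbours in it did not overlap.

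For Cd209f, classical monocyte libraries gave 1.66, 2.25 and 1.84 CPM, early CMDM libraries 5.44, 5.69 and 3.29 CPM, late CMDM libraries 34.6, 45.7 and 17.5 CPM, and resident-like libraries 2.70, 7.34 and 4.71 CPM. For Cd209g, classical monocyte libraries gave 0.923, 1.04 and 0.892 CPM, early CMDM libraries 3.46, 3.22 and 1.20 CPM, late CMDM libraries 14.7, 21.6 and 8.09 CPM, and resident-like libraries 1.51, 3.15 and 2.88 CPM. For both genes every late CMDM library stood above every other library, and early CMDMs and resident-like macrophages overlapped. The low end rested on few reads: classical monocytes held 27, 41 and 33 counts of Cd209f and 15, 19 and 16 counts of Cd209g. The ratio of Cd209f to Cd209g counts lay between 1.57 and 2.74 in the 12 libraries. Reads that fit both genes could have been assigned to either one, and the sum of the pair does not depend on that assignment. This sum was 47.4 ± 20.9 CPM (SD, n = 3) in late CMDMs, against 7.44 ± 2.55 for early CMDMs, 7.43 ± 3.15 for resident-like macrophages and 2.87 ± 0.377 for classical monocytes.

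**Figure D2:**
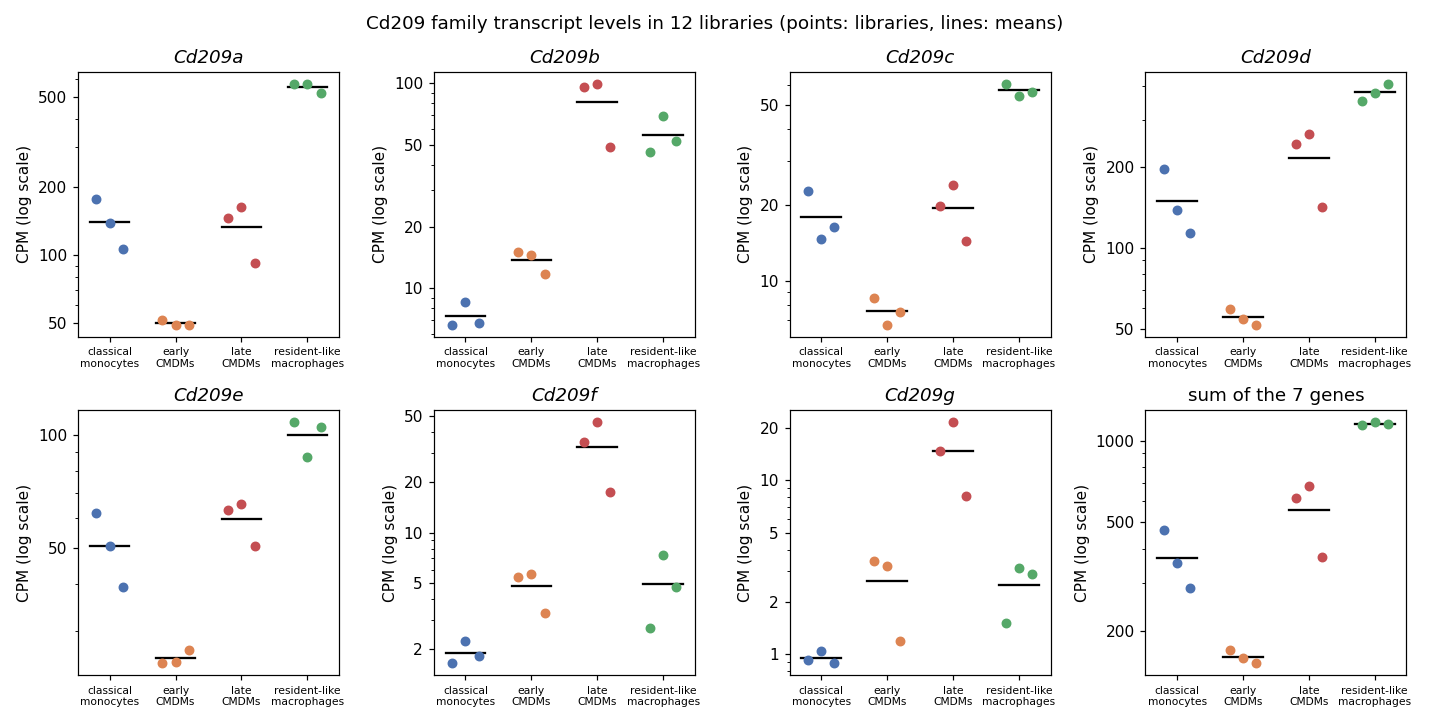
CPM of each Cd209 gene and of their sum (log scale) in the 12 libraries, by fraction; points are libraries and lines are means of 3 libraries. Cd209a, Cd209c, Cd209d and Cd209e peak in resident-like macrophages, Cd209f and Cd209g in late CMDMs, and the third late CMDM library is the lowest of that fraction in every panel.

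Replicate 3 was the lowest late CMDM library for all 7 members, by 1.77 times against the highest for Cd209a and 2.60 times for Cd209f. In the same library the summed level of 13 Lyve1 macrophage genes was 15085 CPM, within the 13707 to 15175 CPM of that fraction. Selenop, at 8934 ± 750 CPM in late CMDMs, made up most of this sum, which therefore does not show the other genes singly. In late CMDMs their relative spread ran from that of Folr2 (372 ± 14.1 CPM, SD) to that of Lyve1 (57.6 ± 20.7 CPM). The sum of 8 lymphatic endothelial genes was 400 CPM in late CMDM library 3, against 483 and 489 CPM in late CMDM libraries 1 and 2. The sum of 14 dendritic cell genes was 395 CPM, against 454 and 434 CPM. The cause of the low member levels in this library was not tested. The coefficient of variation in late CMDMs ran from 13.4% for Cd209e to 45.6% for Cd209g. In early CMDMs it ran from 2.82% for Cd209a to 47.2% for Cd209g, and in resident-like macrophages from 5.05% for Cd209a to 47.4% for Cd209f.

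The summed level of the family was highest in resident-like macrophages (1156 ± 13.2 CPM, SD, n = 3), followed by late CMDMs (558 ± 163 CPM), classical monocytes (369 ± 92.2 CPM) and early CMDMs (160 ± 8.50 CPM). Without Cd209a the sum was 600 ± 28.8, 424 ± 126, 229 ± 57.2 and 110 ± 7.23 CPM in the same order of fractions. Cd209a and Cd209d together made up most of it. Cd209a took 48.1% ± 2.40 of the family counts in resident-like macrophages and 24.1% ± 0.558 in late CMDMs. Cd209d took 32.9% ± 2.35 in resident-like macrophages and 38.7% ± 0.692 in late CMDMs. Such shares are ratios within a library and do not depend on its scaling.

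The share of Cd209b, Cd209f and Cd209g in sum was 2.89% ± 0.793 for classical monocytes, 5.48% ± 1.21 for resident-like macrophages, 13.2% ± 2.19 for early CMDMs and 22.6% ± 2.34 for late CMDMs. The libraries of these fractions did not overlap in this share, with 1.97% to 3.35% in classical monocytes, 4.42% to 6.80% in resident-like macrophages, 10.7% to 14.8% in early CMDMs and 19.9% to 24.3% in late CMDMs. This is a description, since the 3 genes were grouped by their levels in late CMDMs, by which the family was also chosen.

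**Figure D3:**
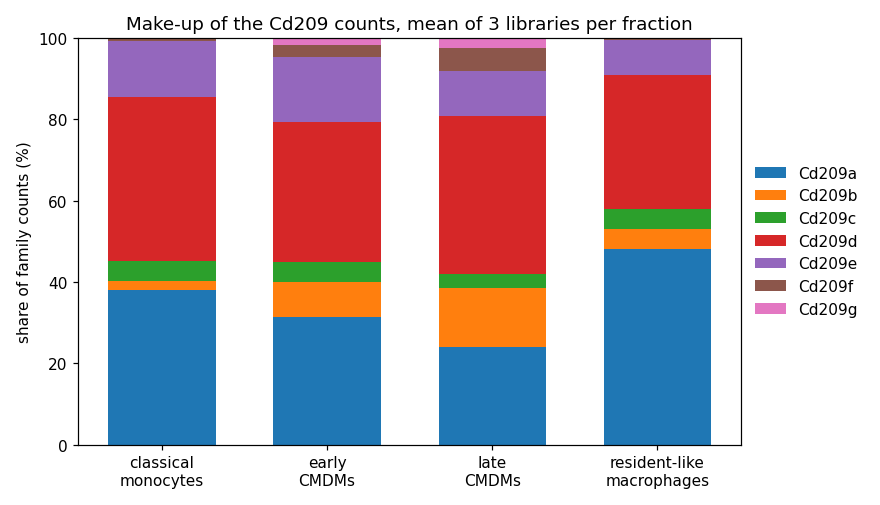
Stacked bars of the mean share of family counts (%, 3 libraries per fraction) taken by each Cd209 gene. Cd209a and Cd209d fill most of each bar, and the part of Cd209b, Cd209f and Cd209g runs from 2.89% in classical monocytes to 22.6% in late CMDMs.

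Levels of different genes were compared per kilobase of the longest coding transcript, which was 919 bases for Cd209d and 2039 bases for Cd209b. On this scale Cd209d had the highest mean of the members in each fraction, at 413 ± 30.3 CPM per kb in resident-like macrophages and 236 ± 71.2 CPM per kb in late CMDMs. Cd209a came next, at 375 ± 18.9 and 90.3 ± 24.9 CPM per kb in these fractions, and its difference from Cd209d in resident-like macrophages was within their spread. In late CMDMs the ranges of mean ± SD of Cd209b (39.9 ± 13.8 CPM per kb), Cd209e (33.2 ± 4.45) and Cd209f (27.5 ± 11.9) overlapped. These SDs are over the same 3 libraries and do not show the order of the genes within a library. In late CMDM libraries 1 to 3 the ratio of Cd209b to Cd209f counts was 2.77, 2.17 and 2.79. Each was above the ratio of their transcript lengths, 2039 and 1186 bases, so Cd209b was above Cd209f per kilobase in each library. In classical monocytes Cd209b (3.60 ± 0.526 CPM per kb), Cd209f (1.62 ± 0.257) and Cd209g (0.816 ± 0.0691) were the least abundant.

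The step from classical monocytes to early CMDMs divided the family. In the comparison of these fractions, Cd209b, Cd209f and Cd209g rose and Cd209a, Cd209c, Cd209d and Cd209e fell, that is 7 of 7 members were called, where 44.9% of all 22118 genes were (24.2% higher, 20.6% lower). Calls were made with edgeR's quasi-likelihood test at a Benjamini-Hochberg adjusted p under 0.05 over all genes tested. Cd209a fell by 1.49 ± 0.19 on the log2 scale (SE; adjusted p = 1.55e-05) and Cd209d fell by 1.44 ± 0.22 (adjusted p = 1.06e-04). Cd209c fell by 1.24 ± 0.19 and Cd209e fell by 1.00 ± 0.15. Cd209b rose by a log2 fold change of 0.91 ± 0.26 (adjusted p = 0.0117), Cd209f by 1.32 ± 0.44 (adjusted p = 0.0272) and Cd209g by 1.46 ± 0.50 (adjusted p = 0.0281).

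The calls of Cd209b, Cd209f and Cd209g in this comparison were close to the threshold. That of Cd209b was lost without classical monocyte replicate 3 (adjusted p = 0.0517). Those of Cd209f and Cd209g were lost without early CMDM replicate 1 or 2 or any 1 of the classical monocyte libraries, with adjusted p up to 0.0987 and 0.0982. The direction for the 4 genes that fell depended on scaling. When libraries were scaled by 10 leukocyte genes in place of TMM, the median of all genes moved from -0.01 to 1.57 and the 4 genes had log2 fold changes of 0.10 (Cd209a), 0.34 (Cd209c), 0.16 (Cd209d) and 0.58 (Cd209e, adjusted p = 0.00957), all below that median. Cd209b, Cd209f and Cd209g remained higher in early CMDMs with either scaling.

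**Figure D4:**
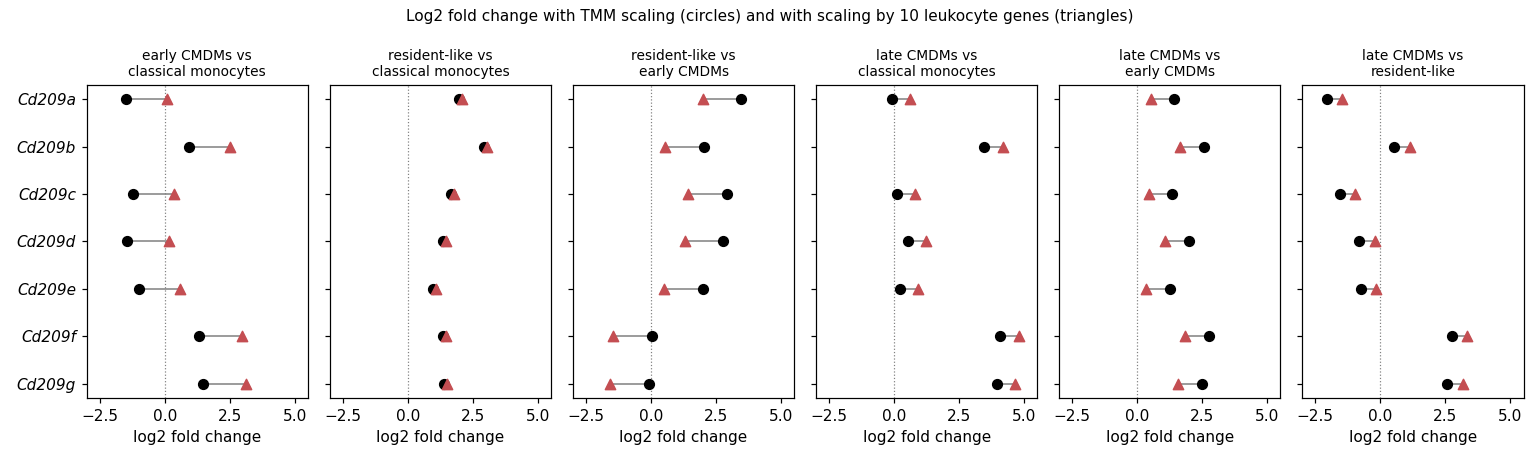
Log2 fold change of each Cd209 gene in 6 comparisons with TMM scaling (circles) and with scaling by 10 leukocyte genes (triangles). In early CMDMs against classical monocytes Cd209a, Cd209c, Cd209d and Cd209e lie below 0 with TMM and above 0 with leukocyte scaling, whereas in resident-like macrophages against classical monocytes both scalings lie close together.

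Resident-like macrophages held more Cd209 transcripts than classical monocytes. Of the 7 members 6 rose and 0 fell, where 10.8% of all genes rose and 23.7% were called in either direction. Cd209b had the largest log2 fold change, 2.93 ± 0.26 (7.60-fold, edgeR adjusted p = 1.55e-06). Cd209a rose by 1.98 ± 0.19 (3.94-fold, adjusted p = 2.14e-06), Cd209c by 1.67 ± 0.18, Cd209d by 1.34 ± 0.22 and Cd209e by 0.98 ± 0.15. Cd209f rose by 1.34 ± 0.44 (adjusted p = 0.0421), and Cd209g, at 1.38 ± 0.50 (adjusted p = 0.0601), was not called, although its libraries did not overlap. The call of Cd209f was lost without any 1 of the classical monocyte libraries, resident-like replicate 2 or 3, or early CMDM replicate 2, with adjusted p up to 0.192. It was also lost with library size only, leukocyte scaling and no expression filter. Cd209g passed the threshold without resident-like replicate 1, late CMDM replicate 2 or 3, or early CMDM replicate 3, with adjusted p down to 0.0222.

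Markers of other antigen-presenting cells were mixed. The summed level of 14 dendritic cell genes, among them Flt3, Zbtb46, Ciita and Itgax, was 1410 to 1479 CPM for resident-like macrophages, 747 to 889 for classical monocytes, 395 to 454 for late CMDMs and 349 to 358 for early CMDMs. Of the 14 genes, 5 rose and 5 fell in resident-like macrophages against classical monocytes (5 and 3 with leukocyte scaling), where 23.7% of all genes were called. Most of the difference in the sum came from H2-DMb1, a gene of antigen loading onto MHC class II, at 786 ± 65.1 CPM for resident-like macrophages and 251 ± 32.5 CPM for classical monocytes, and those that fell with TMM were Flt3, Kmo, Clec9a, Tmem123 and Dpp4. Flt3, the receptor that defines dendritic cells, was at 27.0 ± 4.72 CPM in resident-like macrophages, lower than its 68.9 ± 10.7 CPM in classical monocytes, and Clec9a, a marker of cross-presenting dendritic cells, was at 0.439 ± 0.178 and 8.37 ± 1.53 CPM. The 3 Langerhans cell genes summed to 969 to 1264 CPM in resident-like macrophages, against 103 to 560 CPM elsewhere. Cd207, the Langerhans cell lectin, made up most of the resident-like sum, at 819 ± 125 CPM. Cdh1 was instead highest in early CMDMs (266 ± 48.7 CPM) and reached only 106 ± 2.49 CPM for the resident-like fraction. Epcam differed less between these fractions, with a resident-like mean of 219 ± 31.9 CPM and an early CMDM mean of 148 ± 27.4 CPM. The sum therefore does not show the 3 genes singly. No gene of these 2 lists was at 0 in a whole fraction. The part of such cells in the levels of Cd209a and its companions was not tested.

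Against early CMDMs, resident-like macrophages were higher for Cd209a, Cd209b, Cd209c, Cd209d and Cd209e, 5 of 7 members, where 21.4% of all genes rose and 46.6% were called. The log2 fold changes were 3.47 ± 0.21 for Cd209a (11.1-fold, edgeR adjusted p = 7.17e-09), 2.90 ± 0.19 for Cd209c, 2.78 ± 0.23 for Cd209d, 2.02 ± 0.24 for Cd209b and 1.98 ± 0.15 for Cd209e. Cd209f (0.02 ± 0.40, adjusted p = 0.972) and Cd209g (-0.08 ± 0.43, adjusted p = 0.903) were not called. With leukocyte scaling, which moved the median of all genes from 0.03 to -1.45, Cd209b was no longer called (0.52, adjusted p = 0.109), and Cd209f (-1.48) and Cd209g (-1.59) were lower.

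In late CMDMs against classical monocytes, Cd209b rose by a log2 fold change of 3.47 ± 0.26 (11.0-fold, edgeR adjusted p = 2.31e-07), and it was the only one called of the 5 members tested, where 18.1% of all genes rose and 35.6% were called. Cd209a (-0.07 ± 0.19, adjusted p = 0.801), Cd209c (0.11 ± 0.18), Cd209d (0.53 ± 0.21, adjusted p = 0.0683) and Cd209e (0.24 ± 0.15) were not called. Cd209d passed the threshold without classical monocyte replicate 1 (0.79, adjusted p = 0.00877) or without late CMDM replicate 3 (0.76, adjusted p = 0.00385), and Cd209e without classical monocyte replicate 1 (0.42, adjusted p = 0.0358). With leukocyte scaling, which moved the median of all genes from -0.01 to 0.67, the 5 tested members were all called higher, with Cd209a at 0.62. Cd209f and Cd209g had the largest differences of the family in this comparison, 4.08 ± 0.41 and 3.95 ± 0.44 on the log2 scale, which are given as a description because the level in late CMDMs led to the choice of the family.

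Late CMDMs stood above early CMDMs for all 7 members without overlap of libraries, as did 23.1% of all genes. The log2 fold change was 2.76 ± 0.37 for Cd209f, 2.56 ± 0.24 for Cd209b, 2.49 ± 0.38 for Cd209g, 1.97 ± 0.22 for Cd209d, 1.42 ± 0.19 for Cd209a, 1.35 ± 0.19 for Cd209c and 1.24 ± 0.15 for Cd209e. Late CMDMs stood above resident-like macrophages without overlap for Cd209f (2.74 ± 0.37) and Cd209g (2.57 ± 0.38), where 22.3% of all genes did so. Cd209b (0.54 ± 0.22) overlapped, and Cd209a (-2.05 ± 0.19), Cd209c (-1.55 ± 0.18), Cd209d (-0.81 ± 0.21) and Cd209e (-0.74 ± 0.14) lay below without overlap, as did 20.8% of all genes. With leukocyte scaling the log2 fold changes against early CMDMs were 1.85 for Cd209f, 1.65 for Cd209b, 1.57 for Cd209g, 1.07 for Cd209d, 0.52 for Cd209a, 0.47 for Cd209c and 0.34 for Cd209e, where the median of all genes was -0.88. Against resident-like macrophages they were 3.33 for Cd209f, 3.16 for Cd209g, 1.13 for Cd209b, -1.46 for Cd209a, -0.96 for Cd209c, -0.22 for Cd209d and -0.16 for Cd209e, where that median was 0.57. These values of late CMDMs are descriptions with no test, and both sets of differences share the late CMDM libraries.

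**Figure D5:**
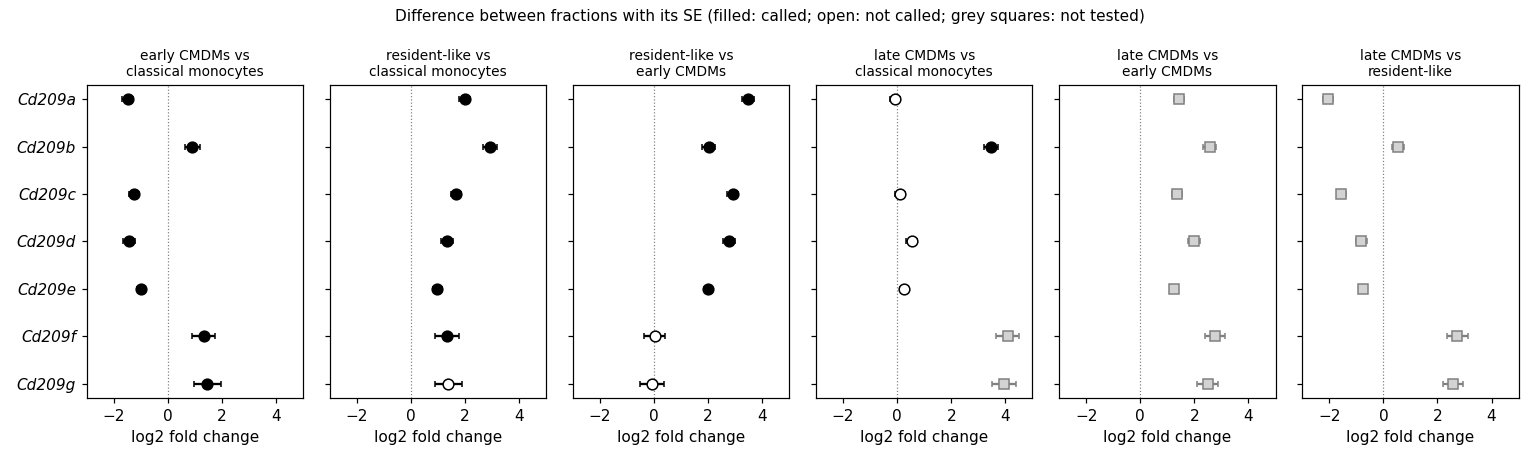
Log2 fold change with its SE (edgeR, 3 libraries per fraction) for each Cd209 gene in 6 comparisons; filled circles were called at an adjusted p under 0.05, open circles were not, and grey squares were not tested. Cd209a, Cd209c, Cd209d and Cd209e lie to the left of Cd209b, Cd209f and Cd209g in the comparison of early CMDMs with classical monocytes and in the comparison of late CMDMs with resident-like macrophages.

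Of 13 Lyve1 macrophage genes, 10 rose and 1 fell in late CMDMs against resident-like macrophages (12 and 1 with leukocyte scaling), where 28.1% of all genes were called. Against early CMDMs 13 rose and 0 fell (8 and 1 with leukocyte scaling), where 31.9% of all genes were called. Timd4, a phosphatidylserine receptor of resident macrophages, was the gene that fell against resident-like macrophages. It was at 9.82 ± 1.93 CPM for late CMDMs and 24.1 ± 5.02 CPM for resident-like macrophages. F13a1 and Ccl24 were not called in that comparison. Together the 13 genes summed to 13707 to 15175 CPM for late CMDMs, 4753 to 5321 for resident-like macrophages, 4213 to 7262 for early CMDMs and 2109 to 2750 for classical monocytes. Selenop, a secreted selenoprotein, made up most of the sum in late CMDMs, at 8934 ± 750 CPM. The 8 lymphatic endothelial genes, some of which macrophages also express, summed to 400 to 489 CPM in late CMDMs and to 106 to 274 CPM elsewhere. All 8 were called higher in late CMDMs than in resident-like macrophages. Log2 fold changes there were 4.06 ± 0.31 for Flt4, 3.73 ± 0.25 for Ccl21a, 3.65 ± 0.25 for Mmrn1 and 2.93 ± 0.26 for Prox1. Against early CMDMs, Pecam1 was not called and Cdh5 was lower. The part of Lyve1 macrophages and lymphatic endothelial cells in the levels of Cd209f and Cd209g was not tested.

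Across the 12 libraries, log2 levels within each pattern ran together. Pearson's r was 0.990 between Cd209a and Cd209c, 0.985 between Cd209d and Cd209e, and 0.990 between Cd209f and Cd209g, which share part of their sequence. It was 0.809 between Cd209b and Cd209f and -0.0363 between Cd209a and Cd209f. After the mean of each fraction was removed, r was 0.948 between Cd209a and Cd209d, 0.920 between Cd209b and Cd209f and 0.913 between Cd209f and Cd209g, but 0.685 between Cd209c and Cd209e. Pairs from different patterns then also ran together in part, with r of 0.626 between Cd209b and Cd209d, 0.622 between Cd209a and Cd209b, 0.572 between Cd209d and Cd209g and 0.449 between Cd209a and Cd209f, and the lowest r of any pair was -0.0174, between Cd209e and Cd209f. These values are descriptions over 12 libraries that share their fractions and depth.

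Outside the family, the genes whose log2 level most resembled that of a member were found by Pearson's r over the 12 libraries. They were Wnk1, a kinase of ion transport (r = 0.987), Pcna, Rgs18, Irf4 and Swap70 for Cd209a. Pearson's r does not compare the size of the changes. Wnk1 averaged 430 CPM in early CMDMs and 604 CPM in resident-like macrophages, where Cd209a averaged 50.1 and 555 CPM. Rgs18, a regulator of G protein signaling (r = 0.983), Abcg3, Irf4, Wnk1 and Trim35 were closest to Cd209c. Irf4, a transcription factor of dendritic cells and alternatively activated macrophages, averaged 111 CPM over resident-like and 20.5 CPM over early CMDM libraries. For Cd209d they were Ier5 (r = 0.965), Tmem64, Casp4, Polg2 and Vmn1r81, and for Cd209e Themis2 (r = 0.965), Pcna, Polg2, Clic4 and Tep1. For Cd209b they were Pmp22, a membrane protein of myelin (r = 0.994), Tmod1, Map3k8, Fxyd2 and Trpm1, and Pmp22 averaged 277 CPM over late CMDM and 212 CPM over resident-like libraries. Ppp1r9a, a scaffold protein of the actin cytoskeleton, was closest to both Cd209f (r = 0.972) and Cd209g (r = 0.973). It was followed by S100a13, H2bc4, Ccl12 and Camk2a for Cd209f and by Mpv17, H2bc4, Mturn and C4b for Cd209g. The chemokine gene Ccl12 had means of 96.3 CPM in late CMDMs and 8.58 CPM in classical monocytes. With Spearman's rho in place of Pearson's r, 1 or 2 of the 5 genes of each member were the same.

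Of 22 other C-type lectin genes, 21 were tested. In early CMDMs against classical monocytes, where 44.9% of all genes were called, 17 fell and 3 rose. The median log2 fold change was -0.78 beside -0.01 for all genes. With leukocyte scaling, where the median of all genes was 1.57, 12 rose and 4 fell. The largest decreases with TMM were those of Clec9a (-4.22 ± 0.36), Clec12a, an inhibitory receptor (-2.78 ± 0.13), Clec4d (-2.68 ± 0.21) and Clec4e, which with Clec4d senses mycobacterial glycolipid (-2.56 ± 0.18). In resident-like macrophages against early CMDMs, where 46.6% of all genes were called, 19 rose and 1 fell (10 and 7 with leukocyte scaling). The largest changes were those of Clec4b1 (4.14 ± 0.25), Clec4g (4.09 ± 0.35), Cd207 (3.67 ± 0.18) and Mgl2, a galactose-type lectin (3.66 ± 0.16). Late CMDMs against early CMDMs, where 31.9% of all genes were called, had 12 higher and 2 lower (5 and 8 with leukocyte scaling), with Mrc2 at -2.74 ± 0.27, Clec4g at 2.03 ± 0.41, Clec10a at 1.78 ± 0.17 and Mgl2 at 1.45 ± 0.15. Late CMDMs against resident-like macrophages, where 28.1% of all genes were called, had 2 higher and 11 lower (6 and 9 with leukocyte scaling).

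Of 18 genes of DC-SIGN signaling, 10 fell and 3 rose in early CMDMs against classical monocytes (median -0.47), and 13 rose and 3 fell with leukocyte scaling. Of all genes, 44.9% were called there with TMM, and their median was 1.57 with leukocyte scaling. Lsp1, a cytoskeletal partner of DC-SIGN, fell by 2.89 ± 0.12 on the log2 scale, and the Src kinases Lyn (-2.19 ± 0.14) and Fyn (-2.09 ± 0.13) were also lower. Cnksr1, a scaffold of Raf signaling, was higher (2.70 ± 0.20). It averaged 29.1 CPM in early CMDMs, where keratinocyte genes were highest, and 4.11 to 8.23 CPM in the other fractions. The part of keratinocytes in the level of Cnksr1 was not tested. In resident-like macrophages against classical monocytes, where 23.7% of all genes were called, 5 rose and 4 fell. Pak1 (1.98 ± 0.09), Card9 (1.42 ± 0.15) and Il10, which encodes an anti-inflammatory cytokine (1.40 ± 0.17), were higher and Fyn (-1.12 ± 0.12) was lower. In late CMDMs against classical monocytes, where 35.6% of all genes were called, 3 rose and 7 fell. With leukocyte scaling, where the median of all genes was 0.67, 10 rose and 5 fell in late CMDMs against classical monocytes. The 4 largest changes there with TMM were decreases, of Lsp1 (-2.49 ± 0.11), Fyn (-1.63 ± 0.12), Lyn (-1.54 ± 0.13) and Malt1 (-1.24 ± 0.10). T cells also express Fyn and Malt1, and the part of the T cell genes, which were highest in classical monocytes, in these decreases was not tested.

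Of 5 genes for ligands of DC-SIGN or SIGNR1, the complement subunits C1qa, C1qb and C1qc rose in each of the 3 other fractions against classical monocytes. The log2 fold change of C1qa was 0.94 ± 0.19 for early CMDMs, 2.66 ± 0.20 for late CMDMs and 2.74 ± 0.20 for resident-like macrophages. Ceacam1, an adhesion glycoprotein, fell by 1.85 ± 0.19, 0.98 ± 0.19 and 0.84 ± 0.18 in these comparisons, in the same order. With leukocyte scaling 4 of the 5 genes rose and 0 fell in early CMDMs against classical monocytes, and 3 rose and 0 fell in late CMDMs. The medians of all genes were then 1.57 and 0.67.

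Of 18 genes that respond to or transmit IL-4, a cytokine of alternative macrophage activation, 6 rose and 6 fell in early CMDMs against classical monocytes (median 0.29), and 16 rose and 0 fell with leukocyte scaling. Of all genes, 44.9% were called there with TMM, and their median was 1.57 with leukocyte scaling. In late CMDMs against classical monocytes 11 rose and 3 fell with a median of 1.26 (16 and 1 with leukocyte scaling), led by Ccl17 (3.51 ± 0.59), Retnla (3.33 ± 0.50), Ccl22 (2.79 ± 0.23) and the mannose receptor gene Mrc1 (2.19 ± 0.19). In that comparison 35.6% of all genes were called with TMM, and their median was 0.67 with leukocyte scaling. In resident-like macrophages against classical monocytes, where 23.7% of all genes were called, 11 rose and 3 fell (median 0.86), and 10 and 2 with leukocyte scaling. They were led by Retnla (3.40 ± 0.50), Ccl17 (3.22 ± 0.59), Mgl2 (3.16 ± 0.16) and Ccl22 (2.73 ± 0.23). Retnla and Ccl17 varied widely between the resident-like libraries, at 1192 ± 943 and 7.77 ± 6.38 CPM (SD). Pdcd1lg2, which encodes the sorted protein PD-L2, is on this list.

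Of 29 other protein-coding genes annotated within 300 kb of the cluster, 28 were in the table and 26 were tested. In resident-like macrophages against classical monocytes 2 rose and 2 fell, where 23.7% of all genes were called. Both that rose, Fcer2a, the low-affinity IgE receptor (2.21 ± 0.26), and Clec4g (2.85 ± 0.30), are C-type lectin genes next to Cd209a. Clec4g measured 9.76 ± 3.79 CPM for resident-like macrophages, 2.35 ± 0.675 for late CMDMs, 1.35 ± 0.221 for classical monocytes and 0.563 ± 0.218 for early CMDMs, which is the order of Cd209c, Cd209d and Cd209e. In early CMDMs against classical monocytes 3 neighbours rose and 7 fell, a share of the 26 below the 44.9% of all genes called, with Camsap3, a microtubule-binding protein, at 2.75 ± 0.20 and Mcemp1, a mast cell and monocyte membrane protein, at -3.49 ± 0.21, and 24 rose and 1 fell with leukocyte scaling. On the side of Cd209f and Cd209g, Lrrc8e, a subunit of volume-regulated anion channels (1.79 ± 0.24), and Evi5l (0.61 ± 0.15) were called higher in that comparison with TMM, and Ccl25, a chemokine gene (-0.71 ± 0.21), was called lower. Camsap3 and Lrrc8e averaged 40.9 and 13.2 CPM in early CMDMs and no more than 8.09 and 3.81 CPM in the other fractions. Keratinocyte genes were also highest in early CMDMs, and the part of keratinocytes in these levels was not tested. In late CMDMs against classical monocytes 2 neighbours rose, Pex11g (0.75 ± 0.18) and Mcoln1 (0.44 ± 0.12), and 6 fell, against 15 and 1 with leukocyte scaling. With TMM 35.6% of all genes were called there, so that these counts of neighbours were not above those of all genes.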

How the data were processed

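Bulk RNA-seq libraries of 4 sorted Mo-Mac fractions, with 3 libraries each, were analysed. The deposited values are raw counts per gene symbol. Per the labels and methods, the authors trimmed the reads with cutadapt 4.1 and mapped them to one strand of the GRCm38 reference RNA with Bowtie2 2.4.5. How reads that fit several genes were counted is not given in the sources used here, so that Cd209f and Cd209g may share reads. All sample columns were used.

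edgeR 4.0.16 in R 4.3.3 was run on the counts with TMM, filterByExpr by fraction and a robust quasi-likelihood fit of the 12 libraries, with 1 coefficient per fraction. P-values were adjusted over the 22118 genes tested, at a threshold of 0.05. The test was tried on simulated counts. Likeness used log2 CPM with a prior count of 2. Replicates differed by more than sampling noise, and none was counted as a duplicate.

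The members, gene lists, tests and alternatives were chosen with earlier results of these data known. The genes named are the members, the 5 most correlated genes of each, the list genes with the largest called changes (up to 4), the neighbouring genes and the markers. The alternatives were DESeq2 1.42.0, RLE, library size only, 10 leukocyte genes, 2 other filters, fits of 6 libraries, a replicate block, other thresholds, TMM without genes over 1% of counts, and omission of each library.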

Additional observations from a re-analysis of the deposited data

How the results depend on the processing

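For early CMDMs against classical monocytes, 7 members were called, and 4 to 7 when 1 library was left out. With leukocyte gene scaling 4 were called, Cd209b, Cd209e, Cd209f and Cd209g, all higher. With no filter or at a threshold of 0.01 the 4 called were Cd209a, Cd209c, Cd209d and Cd209e, all lower. In late CMDMs against classical monocytes the number called was 1 of 5 tested, and 5 with leukocyte gene scaling. It was 2 with DESeq2, 2 at a threshold of 0.1 and 1 to 3 when 1 library was left out. The cause was not tested. In resident-like macrophages against classical monocytes it was 6, and 5 with library size only, leukocyte gene scaling, no filter or a threshold of 0.01, and 7 with DESeq2, with the 6 libraries alone or at a threshold of 0.1. The counts were 5 to 7 there and 5 in resident-like macrophages against early CMDMs when 1 library was left out.

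Leukocyte gene scaling gave log2 fold changes of the opposite sign for Cd209a (0.10), Cd209c (0.34), Cd209d (0.16) and Cd209e (0.58) in early CMDMs against classical monocytes, for Cd209a (0.62) in late CMDMs against classical monocytes and for Cd209f (-1.48) in resident-like macrophages against early CMDMs. Cd209f was at -0.15 there with library size only. When 1 library was left out, uncalled values near 0 changed sign: Cd209f ranged from -0.38 to 0.32 and Cd209g from -0.42 to 0.20 in resident-like macrophages against early CMDMs, and Cd209a from -0.24 to 0.14 and Cd209c from -0.07 to 0.33 in late CMDMs against classical monocytes.

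Replicate numbers were not taken to pair the libraries, since of 18 pairs of same-numbered libraries, 4 correlated above 0.1 (range -0.0987 to 0.248). However, 10 of 12 libraries had their highest mean correlation with the libraries of their own number in the other fractions. This is a hint of pairing from the data and not from the design. With the replicate block, 2 members were called in late CMDMs against classical monocytes and 7 in resident-like macrophages against classical monocytes. The scaling alternatives for the gene lists were chosen after seeing the data. Depth limits Cd209f and Cd209g in classical monocytes.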
